A study of Caenorhabditis elegans with 2 samples.

Results

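The genes of translation initiation and elongation factors were examined as possible targets of ATF-7, which belongs with the CREB-related bZIP factors of *Caenorhabditis elegans*. They were taken by name, as the protein-coding genes of the WBcel235 Ensembl annotation with a symbol that starts with eif-, eef-, ife-, iff- or ifg-. This gave 39 of 19973 protein-coding genes. By symbol, 31 were initiation factor genes, 6 were elongation factor genes and 2 were the eIF5A genes *iff-1* and *iff-2*, which were kept apart because their symbol stands for initiation while the yeast and mammalian protein acts in elongation. A gene was called bound when the summit of an ATF-7 peak that passed the authors' reproducibility threshold lay from 1000 bp upstream to 200 bp downstream of an annotated 5′ end of a protein-coding transcript. ATF-7 summits were found there at 9 of the 39 genes (23.1%), against 6.23% of all protein-coding genes. They were at 5 of the 6 elongation factor genes, at 1 of the 2 eIF5A genes and at 3 of the 31 initiation factor genes.

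In eukaryotic initiation, eIF2 brings the initiator tRNA to the small ribosomal subunit, eIF2B recharges eIF2 with GTP, eIF3 joins the small subunit to the mRNA, and eIF4E with eIF4G recognises the 5′ cap. In elongation, eEF1A delivers aminoacyl-tRNAs to the ribosome, the eEF1B complex recharges eEF1A with GTP, and eEF2 moves the ribosome along the mRNA. eIF5A, known in yeast and mammals, helps the ribosome through sequences at which it stalls. ATF-7 itself is best known for its part in innate immunity, where PMK-1, a p38 MAP kinase, phosphorylates it.

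Binding was mapped by chromatin immunoprecipitation and sequencing (ChIP-seq) in whole young adults, labelled as pooled male and female, that had been synchronized by bleaching and starvation as L1 larvae. All worms were of strain OP638, which carries unc-119(tm4063) III and the transgene wgIs638, so that the mapped protein was ATF-7 fused at its C terminus to GFP-FLAG. The labels describe the precipitation as anti-GFP, while their antibody field names atf-7. There was 1 group with 2 biological replicates from separate biosamples, numbered 2 and 3, so no comparison between conditions and no test between groups can be made.

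The authors filtered peaks by the irreproducible discovery rate (IDR), a measure of agreement between replicates, and 2247 peaks were kept in build ce11, which is the WBcel235 assembly. Their relaxed lists, which also hold weak peaks, had 30000 peaks for the pooled reads, 28126 for replicate 2 and 30000 for replicate 3. The IDR peaks were the 2247 strongest of the pooled list, with signals from 105 to 1586 and a median of 149. Signal is the authors' own value per peak and each list has its own scale, so a peak is placed by its rank within its list, where rank 1 is the strongest. The pooled list contains the reads of both replicates and is not independent of them. Read depth is not known from the files, and the control was not analysed here.

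Initiation and elongation factor genes differed in how many had an IDR summit. The 5 of 6 bound elongation factor genes came to 83.3% and the 3 of 31 bound initiation factor genes to 9.68%, beside the 6.23% of all protein-coding genes. The initiation share turned with the window. With 500 bp upstream and 500 bp downstream it was 1 of 31 (3.23%) beside 5.15% of all genes, and with 100 bp downstream it was again 3.23%, beside 4.59%. With 2000 bp upstream it was 5 of 31 (16.1%) beside 8.43%, and with any base of a peak in the window 16.1% beside 6.92%. The initiation share is therefore not shown to stand above that of all genes, while the elongation factor genes were at 5 of 6 under each of these 4 settings. In the relaxed list of the pooled reads, which gave a promoter summit to 37.6% of all protein-coding genes, all 6 elongation factor genes, both eIF5A genes and 21 of the 31 initiation factor genes (67.7%) had one. In the relaxed list of replicate 2 a promoter summit was found at 26 of the 39 genes (66.7%), against 36.9% of all protein-coding genes, and in that of replicate 3 at 31 (79.5%), against 38.2%. A relaxed summit in both replicates was found at 24 of the 39 genes (61.5%), against 26% of all protein-coding genes. These 24 were all 6 elongation factor genes, both eIF5A genes and 16 of the 31 initiation factor genes (51.6%). Genes of a class are not replicates of a condition, so these counts describe the genes and no test was made of them.

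**Figure D1:**
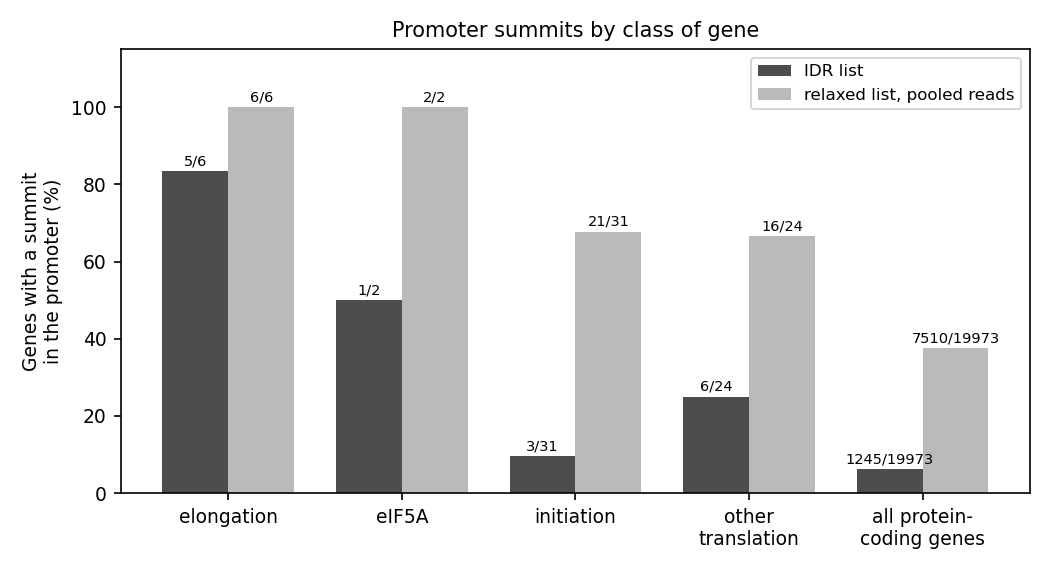
Share of genes with a promoter summit (y axis, percent) in each class of gene (x axis), with dark bars for the IDR list and light bars for the relaxed list of the pooled reads, and the counts printed above each bar. The dark bar of the elongation factor genes stands at 5 of 6 and that of the initiation factor genes at 3 of 31, while the light bars of all translation classes exceed the 37.6% of all protein-coding genes.

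Among elongation factors, both genes of eEF1A were bound. *eef-1A.2* (WBGene00001169, chrX:7823654-7825769, plus strand) had a peak at chrX:7823146-7823384 in intergenic sequence, with its summit 371 bp upstream of the 5′ end. The signal there was 348 in the pooled reads (rank 154), 110.1 in replicate 2 (rank 246) and 244 in replicate 3 (rank 120). *eef-1A.1* (WBGene00001168, chrIII:6970026-6971712, minus strand) had a peak at chrIII:6971906-6972341, also intergenic, with its summit 412 bp upstream. Its signal was 159.6 in the pooled reads (rank 968), 58.7 in replicate 2 (rank 1144) and 91.0 in replicate 3 (rank 1278). *eef-1A.2* thus stood above *eef-1A.1* in all 3 lists, and the ranks of either gene in the replicates did not overlap those of the other.

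The gene of eEF2, the translocase, had a summit next to its 5′ end. *eef-2* (WBGene00001167, chrI:9163531-9166952, plus strand) had a peak at chrI:9163415-9163582 with its summit in intergenic sequence 20 bp upstream of the nearest of its 3 annotated 5′ ends. The signal was 242 in the pooled reads (rank 370), 91.6 in replicate 2 (rank 391) and 148 in replicate 3 (rank 422), so the 3 lists placed it alike.

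In the eEF1B group, which recharges eEF1A, 2 of 3 genes were bound. *eef-1G* (WBGene00008920, chrV:10965719-10967922, plus strand), the gene of the gamma subunit, had a peak at chrV:10965482-10965917 with its summit 19 bp upstream of the nearest of 5 annotated 5′ ends. Its signal was 237 in the pooled reads (rank 396), 95.5 in replicate 2 (rank 348) and 140.4 in replicate 3 (rank 493). *eef-1B.1* (WBGene00018846, chrIII:7972382-7973386, minus strand), of the exchange factor proper, had a peak at chrIII:7973183-7973618 with its summit 15 bp upstream. Its signal was 131 in the pooled reads (rank 1443), 35.7 in replicate 2 (rank 3618) and 101 in replicate 3 (rank 1004). The replicates placed *eef-1B.1* differently, since rank 3618 lies beyond the 2247 strongest peaks of replicate 2 and rank 1004 lies well within those of replicate 3. The only elongation factor gene without an IDR summit was *eef-1B.2* (WBGene00012768, on chromosome IV). It had a relaxed summit 67 bp upstream of its 5′ end with a pooled signal of 45.2 (rank 11440), 20.5 in replicate 2 (rank 13735) and 28.7 in replicate 3 (rank 12526). Its nearest IDR summit was 2439 bp away.

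In the pooled reads and in replicate 3, the strongest summit of any of the 39 genes was at the eIF5A gene *iff-2* (WBGene00002065, chrII:8559375-8561367, minus strand). Its peak at chrII:8561295-8561552 had its summit in intergenic sequence 63 bp upstream of the nearest of 2 annotated 5′ ends and 475 bp upstream of the start codon. The signal was 415 in the pooled reads (rank 102), 109.6 in replicate 2 (rank 248) and 303 in replicate 3 (rank 66). It ranked higher in replicate 3 than in replicate 2, and *iff-2* and *eef-1A.2* were the 2 members with the highest ranks in each list. The other eIF5A gene, *iff-1* (WBGene00002064, on chromosome III), had no IDR summit within 18459 bp. Its relaxed summits gave a pooled signal of at most 39.1 (rank 15034), 23.4 in replicate 2 (rank 10166) and 27.5 in replicate 3 (rank 13652). In *C. elegans*, *iff-1* is known for its role in the germline and *iff-2* for one in the soma, and in whole worms both tissues are sampled together.

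Of the initiation factor genes, those of eIF3 and eIF2B supplied all 3 that were bound. *eif-3.C* (WBGene00001226, chrI:9976426-9979662, minus strand), a core subunit of eIF3, had a peak at chrI:9979819-9980002 in intergenic sequence with its summit 240 bp upstream. Its signal was 260.2 in the pooled reads (rank 317), 98.8 in replicate 2 (rank 319) and 159 in replicate 3 (rank 343), so this gene held nearly the same rank in all lists. *eif-2Bgamma* (WBGene00004090, chrII:6965800-6967648, minus strand), a subunit of the exchange factor eIF2B, had a peak at chrII:6968148-6968583 with its summit 718 bp upstream, inside an intron of the neighbouring gene *C15F1.5*. Its signal was 164 in the pooled reads (rank 909), 62.4 in replicate 2 (rank 990) and 103 in replicate 3 (rank 979). *eif-3.J* (WBGene00012738, chrI:13435489-13437963, plus strand), a loosely attached eIF3 subunit in other eukaryotes, had a peak at chrI:13434521-13434956 in intergenic sequence with its summit 750 bp upstream. Its signal was 116 in the pooled reads (rank 1835), 66.3 in replicate 2 (rank 854) and 51.3 in replicate 3 (rank 3847). *eif-3.J* was the weakest of the 9 bound genes in the pooled reads, and in replicate 3 it lay beyond the 2247 strongest peaks.

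The other initiation factor genes were reached only by relaxed peaks or by none. Of the 11 eIF3 genes 2 were bound and 8 had a relaxed pooled summit, and of the 5 eIF2B genes 1 was bound and 4 had one. The 3 genes of eIF2, the 5 of eIF4E, the 2 of the eIF1 group, which act in start codon selection, and the 4 others (*eif-2A*, *eif-2D*, *eif-4A3* and *eif-6*) held no IDR summit. A relaxed pooled summit was found at 3 of the 3 eIF2 genes, 3 of the 5 eIF4E genes, 1 of the 2 eIF1 group genes and 2 of the 4 others. *ifg-1*, the only eIF4G gene, had no summit in any list. The same held for *eif-2A*, *eif-2D*, *eif-2Bbeta*, *eif-3.K* and *eif-3.L*, so 6 of the 39 promoters held no listed summit. This does not show that they lack binding. The share of all genes without a summit in any list was not computed. In the pooled list alone, 10 of the 39 genes held none, beside 12463 of all 19973 protein-coding genes. Those 10 were the 6 named above and 4 genes that had summits in the list of a replicate. *eif-1* had one in replicate 2 alone (signal 30.2, rank 5530), *eif-3.H* in replicate 2 alone (17.0, rank 20053) and *ife-4* in replicate 3 alone (19.2, rank 24696), while *ife-5* had one in replicate 2 (16.8, rank 20423) and one in replicate 3 (34.1, rank 8833).

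Of the unbound genes, the 5 with the strongest pooled summits were initiation factor genes by symbol. The replicates placed *ife-1*, *eif-2gamma* and *eif-4A3* far apart, and *ife-2* and *eif-3.B* less so. *ife-2*, of the cap-binding protein eIF4E, had a pooled signal of 91.6 (rank 2899) 163 bp upstream, with 39.1 in replicate 2 (rank 2904) and 50.3 in replicate 3 (rank 3991). *ife-1*, also of eIF4E, had 87.0 (rank 3168) 65 bp downstream of its 5′ end, with 23.5 in replicate 2 (rank 10139) and 76.7 in replicate 3 (rank 1792). *eif-3.B*, a scaffold subunit of eIF3, had 84.4 (rank 3344) 289 bp upstream, with 31.0 in replicate 2 (rank 5173) and 54.6 in replicate 3 (rank 3377). *ife-1* was therefore among the 2247 strongest peaks in replicate 3 only. *eif-2gamma*, the GTP-binding subunit of eIF2, had 64.9 (rank 5607) 803 bp upstream, with 46.4 in replicate 2 (rank 1944) and 22.6 in replicate 3 (rank 19301). *eif-4A3*, a helicase of the exon junction complex, had 58.4 (rank 6935) 147 bp downstream, with no promoter summit in replicate 2 and 37.9 in replicate 3 (rank 7141). Thus *eif-2gamma* was among the 2247 strongest peaks in replicate 2 only, and the other 3 in neither replicate. Over the 20 unbound genes with a relaxed pooled summit, the median of the best rank was 11611, with a range from 2899 to 28942, beside a median of 12490 for all unbound protein-coding genes with one.

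**Figure D2:**
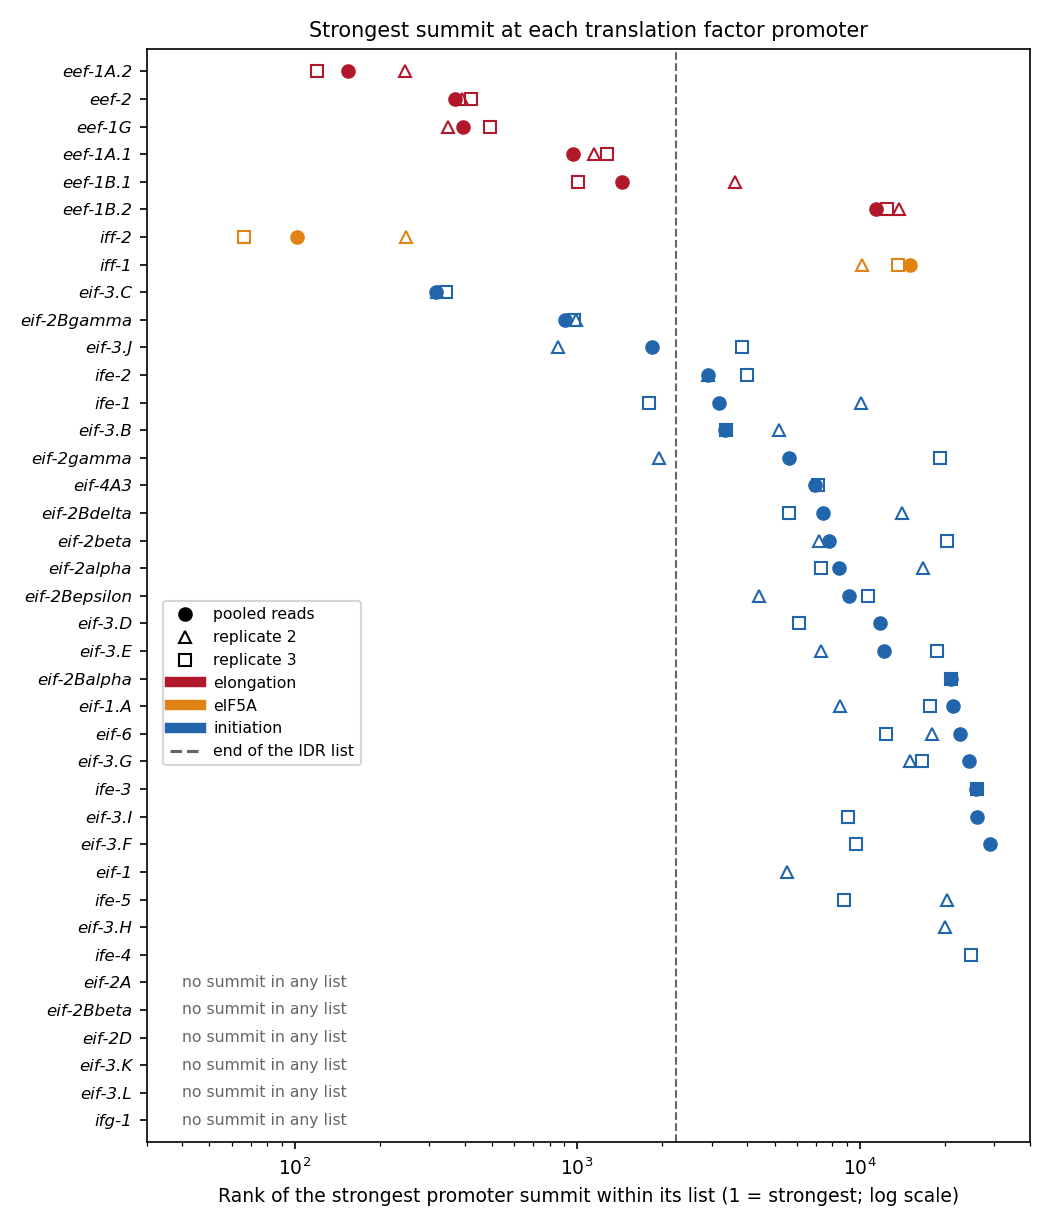
Rank of the strongest promoter summit (x axis, log scale, 1 is the strongest) of each of the 39 genes (y axis) in the pooled reads, replicate 2 and replicate 3, coloured by class, with a dashed line at rank 2247, the length of the IDR list. The pooled ranks of 5 of the 6 elongation factor genes lie left of the line and *eef-1B.2* lies at 11440, while most initiation factor genes lie right of the line or have no summit.

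**Figure D3:**
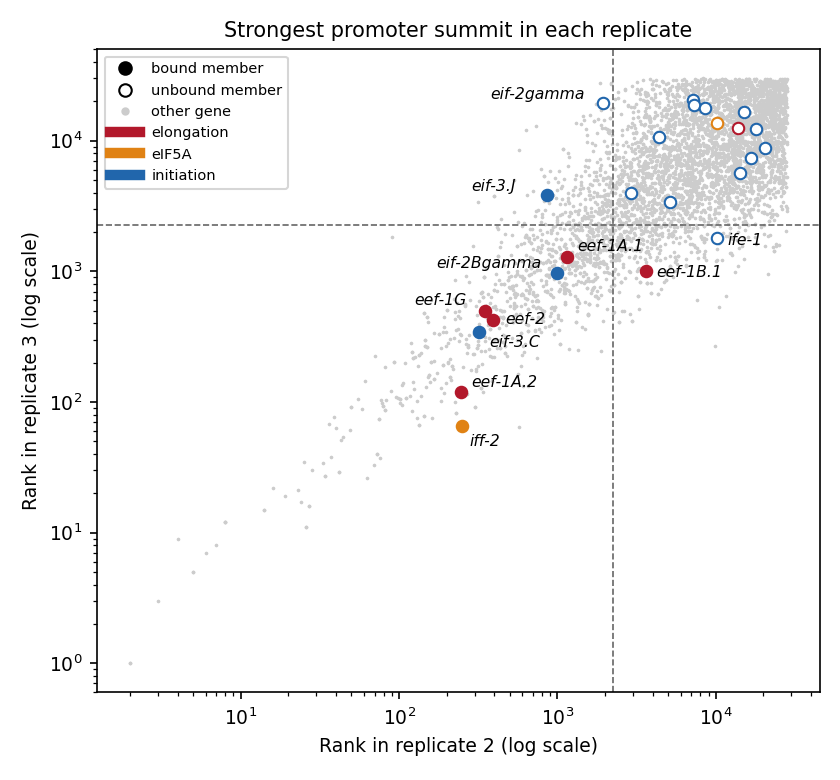
Rank of the strongest promoter summit in replicate 2 (x axis, log scale) and replicate 3 (y axis, log scale) for every gene with a summit in both, with the 24 translation factor genes coloured by class and all others in grey. Dashed lines mark rank 2247 in each list, and *eef-1B.1* and *eif-3.J* are the 2 bound genes that lie outside it in replicate 2 and replicate 3, respectively.

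The values nearest to the edges of the rule were as follows. The weakest bound gene, *eif-3.J*, had a pooled rank of 1835 and the strongest unbound gene, *ife-2*, one of 2899. Between them lay a relaxed summit 921 bp upstream of the already bound *eif-2Bgamma*, with a signal of 103 and rank 2309. The farthest bound summit was 750 bp upstream. The nearest IDR summits upstream of the window were 1064 bp from *ife-3* and 1101 bp from *eif-3.G*. The IDR summit 1176 bp from *eif-1.A* lay downstream of its 5′ end, since a window of 2000 bp upstream did not hold it. Counting any base of a peak in the window added *ife-3* and *eif-3.G*. A summit of both replicates lay within 100 bp of the IDR summit at all 9 bound genes, as it did at 1190 of all 1245 bound genes (95.6%). The offsets were at most 69 bp in replicate 2, at *eef-1B.1*, and at most 35 bp in replicate 3, at *eif-3.J*.

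Each of the 9 bound genes had exactly 1 IDR summit in its promoter, and their strength and position varied. Their median signal was 237, beside 155 for all bound protein-coding genes, and 5 of the 9 (55.6%) were among the 500 strongest IDR peaks, beside 319 of all 1245 bound genes (25.6%). Those 5 were *iff-2*, *eef-1A.2*, *eif-3.C*, *eef-2* and *eef-1G*. The summits lay from 750 bp to 15 bp upstream of the 5′ end, with a median of 240 bp upstream beside 247 bp upstream for all bound genes. Within 100 bp of the 5′ end lay 4 of the 9 (44.4%), namely *eef-1B.1*, *eef-1G*, *eef-2* and *iff-2*, beside 261 of all bound genes (21.0%). None of these 4 was an initiation factor gene, and the 3 initiation factor summits lay 240, 718 and 750 bp upstream. The eEF1A summits formed a separate pair at 371 and 412 bp upstream. The number of annotated 5′ ends, which sets how much sequence the rule searches, was 1 at 22 of the 39 genes (56.4%) and at 14723 of all genes (73.7%).

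**Figure D4:**
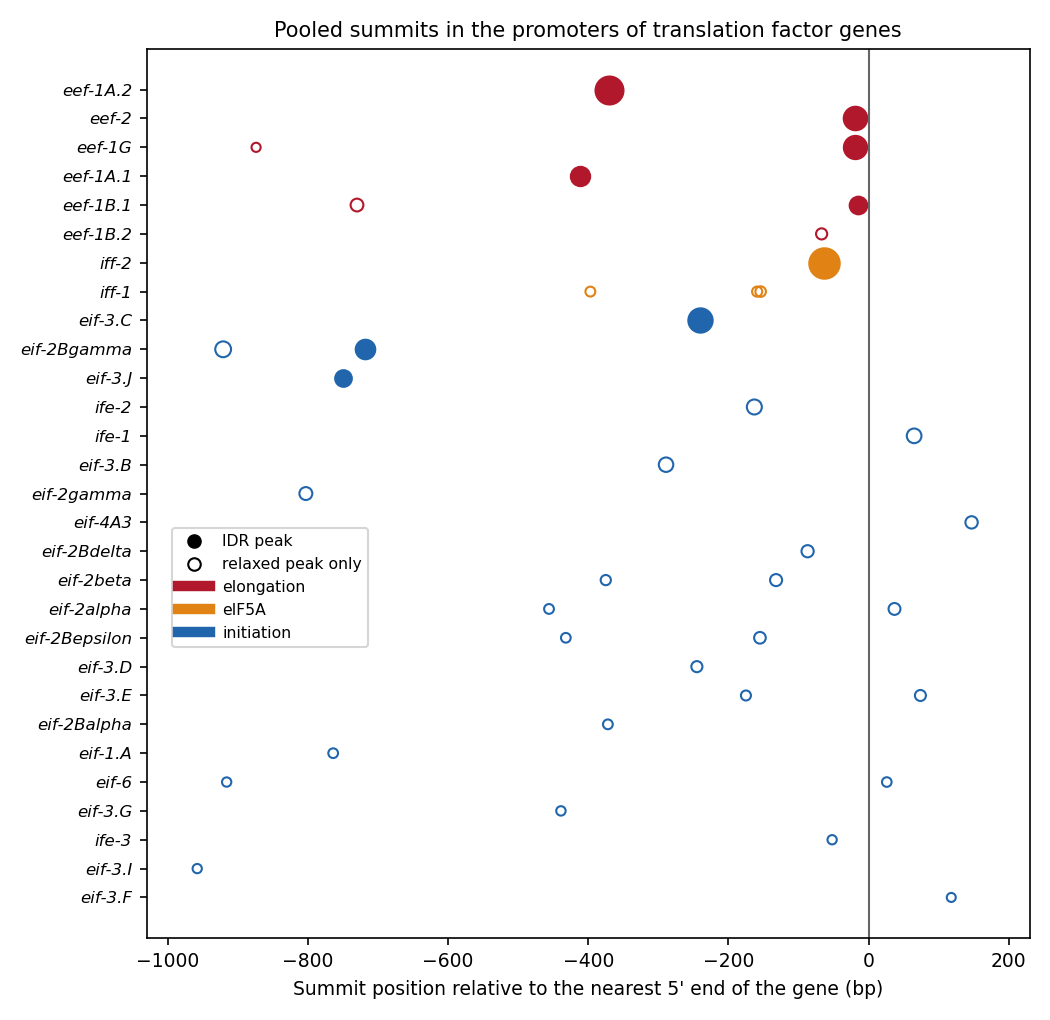
Position of every relaxed pooled summit relative to the nearest 5′ end (x axis, bp, negative upstream) in the promoters of the 29 translation factor genes that have one (y axis), with filled points for IDR peaks, open points for relaxed peaks only, and a point area that grows with the signal. Filled points of *eef-2*, *eef-1G*, *eef-1B.1* and *iff-2* lie between 63 and 15 bp upstream, and those of *eif-2Bgamma* and *eif-3.J* lie 718 and 750 bp upstream.

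The summits near the elongation factor genes lay mostly between divergent genes, and a summit in such a place cannot be given to either gene from its position alone. Of the 9 bound genes 5 (55.6%) shared their summit with the promoter of another protein-coding gene, beside 436 of all 1245 bound genes (35.0%). The *eef-1G* summit lay 161 bp upstream of *ctf-4*, a gene of chromosome replication and cohesion, and 19 bp upstream of *eef-1G*. The *eef-2* summit lay 245 bp upstream of *clsp-1*, the gene of the replication checkpoint protein Claspin. The *eef-1B.1* summit lay 316 bp upstream of *aco-2*, of mitochondrial aconitase, and the *iff-2* summit 872 bp upstream of *F54C9.14*. In these 4 cases the translation factor gene was the nearer. At *eef-1A.1* the order was turned, since the summit lay 129 bp upstream of *rfc-4*, of the clamp loader for DNA replication, and 412 bp upstream of *eef-1A.1*.

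The 3 bound initiation factor genes shared no summit with the promoter of another protein-coding gene and had a neighbour upstream on the same strand. At *eif-3.C* the upstream gene was *sys-1*, the end of which lay 161 bp from the summit, and at *eif-3.J* it was *slc-25A46*, which ended 128 bp from the summit. At *eif-2Bgamma* the summit lay inside *C15F1.5* and 28 bp from *sup-39*, annotated as an snRNA gene. *sup-39* runs on the same strand as *eif-2Bgamma*, from -192 to -28 bp relative to the summit. The summit would thus also fall in the window of *sup-39*, had the rule been applied to non-coding genes, and cannot be given to either gene from its position. The nearest protein-coding gene upstream of *eef-1A.2* was *sek-1*, 2617 bp away, and the ncRNA gene *R03G5.8* lay 102 bp from its summit. Non-coding genes were closer at other members. The *eef-1B.1* summit lay inside the ncRNA gene *F54H12.9* (0 bp). The ncRNA gene *C15F1.14* lay 26 bp from the *eif-2Bgamma* summit, and the miRNA gene *cel-mir-5549* 39 bp from that of *eef-1A.1*.

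Spacing of the genes differed between the classes too. A gene on the opposite strand lay within 1000 bp upstream of 20 of the 39 translation factor genes (51.3%), beside 3502 of all genes (17.5%). Of those 20, 4 were elongation factor genes, all 4 of which were bound, and 14 were initiation factor genes, 0 of which were bound. Of all genes with such a neighbour 331 (9.45%) were bound. The remaining 2 were *iff-2*, which was bound, and *iff-1*, which was not. A divergent neighbour was therefore frequent in both classes, and the IDR summits between such genes were at *iff-2* and the 4 elongation factor genes. With only 14 initiation factor genes, 0 bound is not shown to lie below the 9.45% of all genes. Among the 12 initiation factor genes with a same-strand neighbour within 1000 bp, 3 were bound, beside 343 of 5694 among all genes (6.02%). Of these 3, *eif-2Bgamma* and *eif-3.J* were lost with a window of 500 bp upstream. With only 12 genes, this share is not shown to stand above that of all genes.

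**Figure D5:**
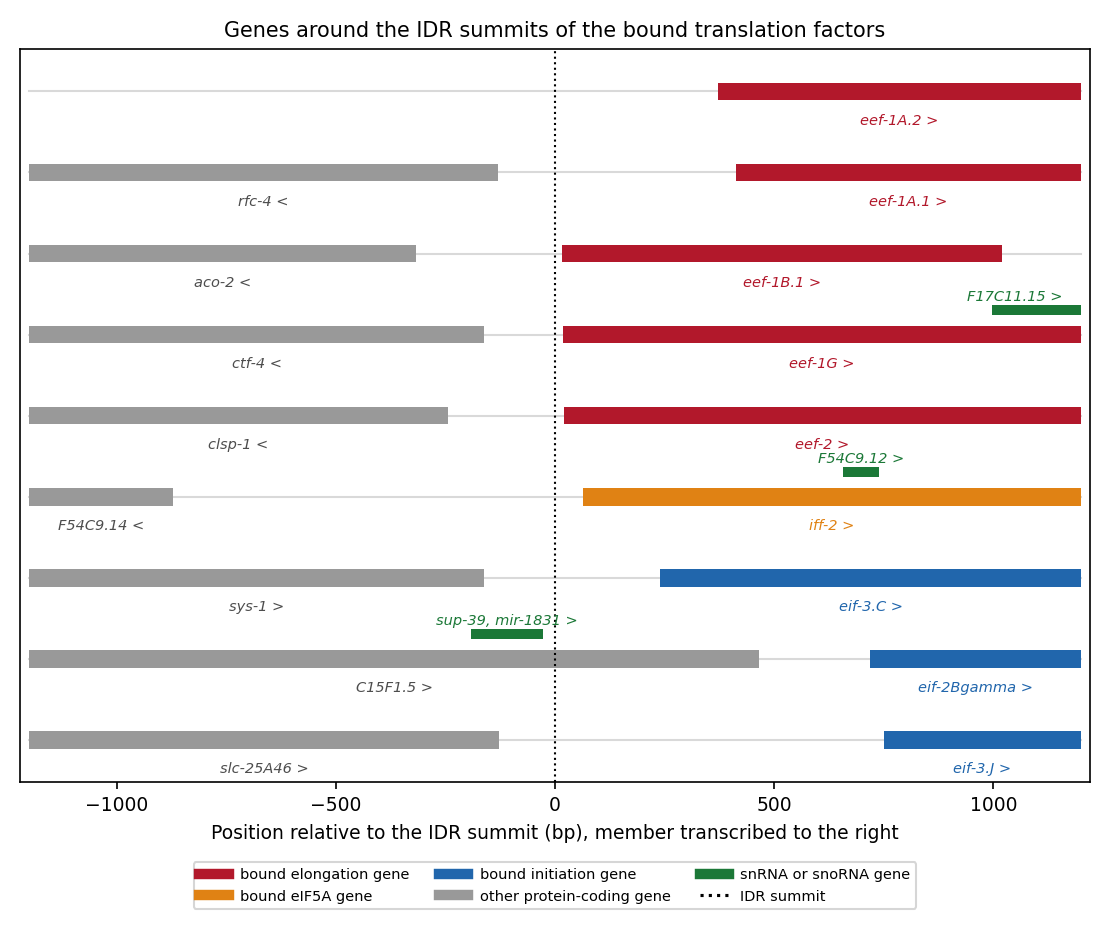
Genes within 1200 bp of the IDR summit (dotted line, x axis in bp from the summit) of the 9 bound translation factor genes, each drawn so that the translation factor gene is transcribed to the right, with arrowheads beside the names for the direction of transcription. Grey neighbours of *eef-1A.1*, *eef-1B.1*, *eef-1G*, *eef-2* and *iff-2* point away from the summit on the left, *sys-1* and *slc-25A46* point toward it at *eif-3.C* and *eif-3.J*, *C15F1.5* runs through it at *eif-2Bgamma*, and ncRNA genes other than snRNA and snoRNA genes are not drawn.

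Paralogues had summits of unequal strength. The proteins of *eef-1A.1* and *eef-1A.2*, translated from the annotated coding sequence, were both 463 residues long and identical at all 463, and their coding sequences were 94.0% identical. Their upstream sequences were not copies, since the longest exact run shared by the 1000 bp upstream of each was 12 bases, and both had an IDR summit. *eef-1B.1* and *eef-1B.2* matched at 130 of 145 residues (89.7%) in the best local alignment of their most alike isoforms and at 56.6% of columns over the whole proteins of 213 and 263 residues, with a longest shared upstream run of 11 bases, and only *eef-1B.1* was bound. *iff-1* and *iff-2* matched at 135 of 161 residues (83.9%) in the local alignment and at 69.2% of columns over the whole proteins, with a longest shared upstream run of 12 bases, and only *iff-2* was bound. The 5 eIF4E genes matched each other at 27.7% to 79.4% of locally aligned residues, highest for *ife-1* and *ife-5*, and none was bound. Reads can be shared between near-identical copies, so the summit windows were checked for repeats. All 172 words of 30 bases in the 201 bp around the summit occurred only once in the genome at 8 of the 9 bound genes, and 122 of 172 (70.9%) did at *eif-2Bgamma*, the summit of which is next to *sup-39*.

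The sequences at the summits are shown for 6 of the 9 bound genes. Windows of the other bound genes are not printed. The printed sequences therefore lack some copies of the words and shared runs described below. Each runs 5′ to 3′ in the direction of the gene, from 100 bp upstream of the summit to 100 bp downstream of it, or to 10 bases past the annotated 5′ end where this comes first. Capitals mark TGACG (the core of the cyclic-AMP response element, CRE), the GA repeat word GAGAGA, the word ACGCAG, and the overlapping word TACGCA, each on either strand. The windows are from the WBcel235 (ce11) genome, at chrII:8561358-8561530 minus strand for *iff-2*, chrX:7823183-7823383 plus strand for *eef-1A.2*, chrV:10965600-10965728 plus strand for *eef-1G*, chrII:6968266-6968466 minus strand for *eif-2Bgamma*, chrIII:6972024-6972224 minus strand for *eef-1A.1* and chrIII:7973377-7973501 minus strand for *eef-1B.1*.
iff-2: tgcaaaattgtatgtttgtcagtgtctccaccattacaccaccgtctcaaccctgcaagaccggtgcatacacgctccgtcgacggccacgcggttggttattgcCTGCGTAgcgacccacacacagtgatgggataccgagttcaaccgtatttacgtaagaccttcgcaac
eef-1A.2: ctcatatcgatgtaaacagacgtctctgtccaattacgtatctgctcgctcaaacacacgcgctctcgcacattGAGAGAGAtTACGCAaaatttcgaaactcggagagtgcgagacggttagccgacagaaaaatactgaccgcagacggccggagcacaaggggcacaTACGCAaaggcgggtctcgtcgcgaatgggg
eef-1G: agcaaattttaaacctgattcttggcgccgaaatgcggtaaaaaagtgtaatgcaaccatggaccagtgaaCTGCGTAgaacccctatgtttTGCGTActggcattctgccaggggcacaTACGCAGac
eif-2Bgamma: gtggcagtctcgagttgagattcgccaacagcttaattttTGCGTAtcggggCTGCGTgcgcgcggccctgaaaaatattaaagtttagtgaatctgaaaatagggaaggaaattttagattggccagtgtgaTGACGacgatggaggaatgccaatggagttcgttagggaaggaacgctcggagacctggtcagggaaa
eef-1A.1: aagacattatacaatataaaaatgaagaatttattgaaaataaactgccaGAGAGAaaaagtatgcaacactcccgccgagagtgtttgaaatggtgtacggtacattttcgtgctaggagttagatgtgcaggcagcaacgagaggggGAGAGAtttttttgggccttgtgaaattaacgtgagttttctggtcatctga
eef-1B.1: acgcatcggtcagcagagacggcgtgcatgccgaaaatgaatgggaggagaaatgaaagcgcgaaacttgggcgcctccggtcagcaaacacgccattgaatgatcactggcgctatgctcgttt

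The full CRE, TGACGTCA, lay within 100 bp of the summit at 0 of the 9 bound genes, beside 105 of the 1103 promoter IDR peaks (9.52%), a share that would amount to less than 1 of 9 genes. In windows of the same length 500 bp to either side of all IDR summits the share was 1.11%, and around the 5′ ends of all protein-coding genes 0.806%. The core TGACG was found at 3 of the 9, beside 41.8% of promoter IDR peaks and 22.7% of 5′ end windows. These 3 were the initiation factor genes *eif-3.C*, *eif-2Bgamma* and *eif-3.J*. None of the 5 elongation factor genes and not *iff-2* held it within 100 bp. Within 200 bp it was at 4 of the 9, beside 55.3% of promoter IDR peaks. A gene outside the initiation class then held it too, so this split between classes depends on the window. The E-box CACGTG was at 0 of the 9 (11.2% of promoter IDR peaks and 4.41% of 5′ end windows) and the GATA site TGATAA at 0 of the 9 (26.6% and 20.6%).

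Other words were found at some of the summits. The GA repeat GAGAGAGA was at *eef-1A.2* only (7.62% of promoter IDR peaks, 1.88% of 5′ end windows), and its shorter form GAGAGA at both eEF1A genes (34.0% and 14.0%). ACGCAG was at 3 of the 9, *iff-2*, *eef-1G* and *eif-2Bgamma* (18.9% and 4.89%). TACGCA was at 4 of the 9, *iff-2*, *eef-1A.2*, *eef-1G* and *eif-2Bgamma* (7.98% and 3.70%), with 3 copies at *eef-1G* and 2 at *eef-1A.2*. ACGCAG and GAGAGA were known from earlier results to be frequent at these peaks, TACGCA was chosen after the windows had been read, and TACGCA and ACGCAG overlap in TACGCAG. The windows of *eef-2* and *eef-1B.1* held none of the words named here. The windows had a median of 45.8% G and C bases, from 30.8% at *eif-3.J* to 52.7% at *eef-1A.2*, beside 42.3% for promoter IDR peaks and 35.4% for the genome.

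The *eef-1A.2* and *eef-1G* windows shared an exact run of 15 bases in the same orientation, AGGGGCACATACGCA, which can be seen in both sequences above. It began 61 bases after the summit in *eef-1A.2* and 11 bases after it in *eef-1G*, where it spans the annotated 5′ end. The run occurs at 5 places in the genome. Another 2 of them lay on chromosome II near *icd-1*, of the nascent polypeptide-associated complex at the ribosome exit, 68 and 111 bp from an IDR summit of signal 233 (rank 409). The last lay on chromosome IV, 299 bp from a weak pooled summit of rank 28282 and with no IDR summit near. The run was thus in the windows of 3 of the 2247 IDR peaks (0.134%).

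A run of 16 bases was shared by *eef-2* and *eef-1A.1* in opposite orientation and occurs at 4 places in the genome. It lay 21 bp from the summit at *eef-2*, 27 bp from that at *eef-1A.1* and 22 bp from an IDR summit of signal 256 (rank 332) near the ribosomal protein gene *rpl-11.2*. At the fourth place, near the proteasome gene *pbs-1*, it lay 5 bp from a pooled summit of rank 5530 outside the IDR list. All 4 copies were thus within 27 bp of a pooled summit. The other 34 pairs of the 9 windows shared at most 11 bases. Runs were sought in all pairs after the windows had been chosen, and no test was made of them.

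Genes of translation outside the named families gave a similar share. Of 24 other genes, listed by role, 6 were bound (25.0%), beside 6.23% of all protein-coding genes. Among 6 genes that help initiation, 3 were bound, led by *drr-2*, related to eIF4H, with a signal of 621 (rank 30) 155 bp upstream. *ifet-1*, of the eIF4E transporter family, had a signal of 443 (rank 80) 515 bp upstream and *pab-2*, of a poly(A) binding protein, one of 205 (rank 553) 222 bp upstream. *drr-2* and *ifet-1* were thus above all 39 translation factor genes in rank. Of 9 kinases and regulators 2 were bound, *larp-1*, an RNA-binding protein of the La-related family, with a signal of 332 (rank 175) 668 bp upstream, and *mnk-1*, of the kinase that phosphorylates eIF4E in mammals, with 315 (rank 199) 506 bp upstream and 4 IDR summits in all. Of 4 genes of mitochondrial elongation 1 was bound, *gfm-1*, with a signal of 113 (rank 1921) 128 bp upstream. None of the 3 release and recycling genes and none of the 2 genes of the enzymes that make hypusine on eIF5A were bound. A relaxed pooled summit was found at 16 of the 24 (66.7%), close to the 67.7% of the initiation factor genes, beside 37.6% of all genes. Of the 78 genes with a symbol that starts with rpl- or rps-, 23 were bound (29.5%) and 60 had a relaxed pooled summit (76.9%). A raised share was thus not particular to the translation factor genes.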

How the data were processed

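ATF-7 ChIP-seq peaks of 2 biological replicates were used. The authors mapped reads to builds ce10 and ce11, per the labels, and called relaxed peaks on each replicate alone and on both together, with a control. Which aligner, caller and IDR threshold they used is not given in the sources used here. The deposited signal is the authors' value per peak, used only for ranks and description within a list. The summit is the peak's start plus the deposited offset. The ce10 lists were not used. Read depth is unknown, so no limit is derived from it.

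The ce11 summits were assigned to the 29314 5′ ends of protein-coding transcripts on the 6 nuclear chromosomes, with Python (numpy 2.4.6, pandas 2.3.3, biopython 1.88 for protein alignment), and the assignment was tested on simulated summits. A summit counted for every gene in whose window it lay. The upstream neighbour is the nearest protein-coding gene upstream, and intergenic means outside protein-coding genes. No test across genes was run. The genes named are all bound members, their paralogues and summit-sharing neighbours, the 5 unbound members with the strongest pooled summit, and all bound genes of the other translation list. Members outside this rule that had no pooled summit, had the nearest IDR summit outside the window, or changed under another setting were named after their values were seen. The members and lists were chosen with earlier results of these data known. Alternatives were other windows, 5′ ends, overlaps and peak lists.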

Additional observations from a re-analysis of the deposited data

How the results depend on the processing

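Under the settings tried, the count of bound translation factor genes stayed between 7 and 11 of 39, apart from 29 with all relaxed pooled peaks. Of the initiation factor genes, 1 of 31 was bound with 500 bp upstream and either 500 or 100 bp downstream, 5 with 2000 bp upstream or with any base of a peak in the window, and 21 with relaxed pooled peaks. The shorter windows lost *eif-2Bgamma* and *eif-3.J*, and the wider ones added *eif-3.G* and *ife-3*. Over all protein-coding genes 675 were bound with the 1123 strongest IDR peaks and 7510 with relaxed pooled peaks, and over other translation genes 16 with the latter. These changes follow from more or fewer peaks or bases being searched. Leaving out a replicate, by taking the 2247 strongest peaks of the other, gave 9 to 9 members, 3 to 4 initiation, 4 to 5 elongation, 5 to 6 other translation and 1178 to 1252 of all genes, and a median position of -240 to -239 bp. *eif-3.J* was lost and *ife-1* gained without replicate 2, and *eef-1B.1* was lost and *eif-2gamma* gained without replicate 3. Counting each summit only for its nearest gene, chosen after the data were seen, left 4 of 6 elongation factor genes bound, without *eef-1A.1*. TGACG was at 3 of 9 summits within 50 bp and at 4 within 200 bp. No paired analysis was possible because there is 1 group. With 2 replicates and unknown depth, a weak summit and none cannot be told apart.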
